A study of Mus musculus with 12 samples.

Results

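Untreated mouse embryonic stem (ES) cells lacking the de novo DNA methyltransferases were compared with wild-type ES cells, to describe which transcripts mark the loss of de novo methylation in cycling cells. The comparison used the 4 libraries labelled 0 hours and control, 2 of the line DNMT3ABKO (knockout of Dnmt3a and Dnmt3b) and 2 of the line KH (wild type), out of 12 libraries in all. The other 8 libraries were the same lines after 72 or 144 h in the mTOR inhibitor INK128, and were read for the genes called at 0 h. Total RNA had been depleted of ribosomal RNA, sequenced and summarised per gene as TPM, transcripts per 1000000 transcripts. Both lines carry E14 in their labels, whereas the methods name the wild-type line KH2 and describe it and the knockout as grown on mitomycin-treated feeder cells. Each genotype was 1 line, so that genotype and line cannot be told apart. The study's reporting statement describes its experiments in general as repeated independently, while the labels of these libraries name no separate cultures, and the p-values measure only the spread between these libraries.

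In mammals, DNMT3A and DNMT3B place methyl groups on cytosines of unmethylated CpG dinucleotides, DNMT3L is a cofactor without catalytic activity of its own, and DNMT1 with UHRF1 copies existing methylation after replication. Genes best known to be held silent by promoter methylation in somatic and pluripotent cells are germline genes, among them meiosis and transposon-defence factors, the X-linked Rhox homeobox cluster and testis genes. ES cells also contain a rare state that transcribes genes of the 2-cell embryo, such as the Zscan4 cluster.

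The promoters of a few genes on which the results turn are shown for their different CpG content. They are the 250 bases before the start site in the RefSeq table (GRCm38.p6, the patch release of mm10), 5′ to 3′ on the gene's strand, in lower case with each CG in capitals.
Fkbp6: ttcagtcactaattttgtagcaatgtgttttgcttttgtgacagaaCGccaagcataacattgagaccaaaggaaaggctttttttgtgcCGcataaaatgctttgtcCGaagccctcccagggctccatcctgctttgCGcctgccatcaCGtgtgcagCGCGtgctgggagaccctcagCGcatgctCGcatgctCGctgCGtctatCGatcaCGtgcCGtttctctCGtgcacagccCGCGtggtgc
Hormad1: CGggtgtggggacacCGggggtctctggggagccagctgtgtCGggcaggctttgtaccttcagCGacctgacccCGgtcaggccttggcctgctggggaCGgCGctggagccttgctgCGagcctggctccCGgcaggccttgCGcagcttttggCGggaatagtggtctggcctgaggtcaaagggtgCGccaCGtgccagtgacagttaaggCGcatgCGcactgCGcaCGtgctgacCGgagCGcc
Smc1b: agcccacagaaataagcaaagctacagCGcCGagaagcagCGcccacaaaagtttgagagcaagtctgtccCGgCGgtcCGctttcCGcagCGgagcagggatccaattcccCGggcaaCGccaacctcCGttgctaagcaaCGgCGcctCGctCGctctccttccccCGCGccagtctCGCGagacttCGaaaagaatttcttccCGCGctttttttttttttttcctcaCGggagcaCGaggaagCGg
Dazl: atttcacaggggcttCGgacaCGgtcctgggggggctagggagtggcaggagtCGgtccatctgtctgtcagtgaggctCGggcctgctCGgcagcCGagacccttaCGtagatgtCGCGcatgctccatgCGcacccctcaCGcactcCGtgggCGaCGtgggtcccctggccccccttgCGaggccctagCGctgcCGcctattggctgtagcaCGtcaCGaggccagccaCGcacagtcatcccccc
Xlr3a: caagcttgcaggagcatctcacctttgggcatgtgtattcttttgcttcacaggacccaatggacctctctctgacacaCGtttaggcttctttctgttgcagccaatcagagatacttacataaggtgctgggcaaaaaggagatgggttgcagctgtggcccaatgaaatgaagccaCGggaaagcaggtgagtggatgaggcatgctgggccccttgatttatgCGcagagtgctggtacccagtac
Zscan4f: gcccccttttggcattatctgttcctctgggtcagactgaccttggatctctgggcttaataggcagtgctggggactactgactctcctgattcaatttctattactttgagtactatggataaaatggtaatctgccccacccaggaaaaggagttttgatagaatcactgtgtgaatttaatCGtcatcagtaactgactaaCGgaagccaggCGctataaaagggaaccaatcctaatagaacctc
The windows lie at chr5:135350045-135350294 (minus strand) for Fkbp6, chr3:95559427-95559676 (plus) for Hormad1, chr15:85131958-85132207 (minus) for Smc1b, chr17:50293621-50293870 (minus) for Dazl, chrX:73097096-73097345 (minus) for Xlr3a and chr7:11397665-11397914 (plus) for Zscan4f. The germline promoters held 17 CpGs (Fkbp6), 19 (Hormad1), 25 (Smc1b) and 20 (Dazl), whereas those of Xlr3a and Zscan4f held 3 each. Over all 32851 windows of the table the median was 6 CpGs, with quartiles of 2 and 16. Thus the 4 germline windows were richer in CpG than the upper quartile and the other pair lay below the median. All 12 germline genes called higher (below) had a window, with a median of 14.5 CpGs and a range of 5 to 25. For 7 of the 8 X-linked testis genes called higher the median was 6, with a range of 0 to 9. The E-box CACGTG, which reads the same on both strands, was in 3 of the 12 germline windows and in 6.02% of all windows, and GCGGGAA, searched on both strands, was in 4 of the 12 and in 3.82% of all. Fkbp6 and Hormad1 held CACGTG, and Hormad1 and Smc1b held GCGGGAA. A match of letters is a description and not a binding site. The same count over all called genes is void, because only 77.9% of the tested protein-coding genes, and 64.9% of those called higher, had a window.

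The targeted genes were lower in both DNMT3ABKO libraries. Dnmt3b was at 255 and 258 TPM in KH and at 26.2 and 27.5 TPM in DNMT3ABKO, a difference of -3.21 ± 0.12 (SE) on the log2(TPM + 1) scale. Dnmt3a was at 57.7 and 54.7 TPM in KH against 11.6 and 7.35 TPM, a difference of -2.48 ± 0.20. limma gave adjusted p = 0.000117 for Dnmt3b and 0.00144 for Dnmt3a. Both transcripts were still measured in the knockout, and TPM per gene does not show which exons the remaining reads cover. Dnmt3c, a rodent paralogue next to Dnmt3b that silences young retrotransposons in male germ cells, went from 7.44 and 6.45 TPM to 0.452 and 0.361 TPM (-2.50 ± 0.17, limma adjusted p = 0.000763). How reads were assigned between it and Dnmt3b was not tested. Dnmt3l was at 237 and 251 TPM in KH and 236 and 238 TPM in the knockout, and neither it nor Dnmt1 or Uhrf1 passed the test. Of the 21 tested genes of the methylation machinery, these 3 Dnmt3 genes were called lower and 0 higher.

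**Figure D1:**
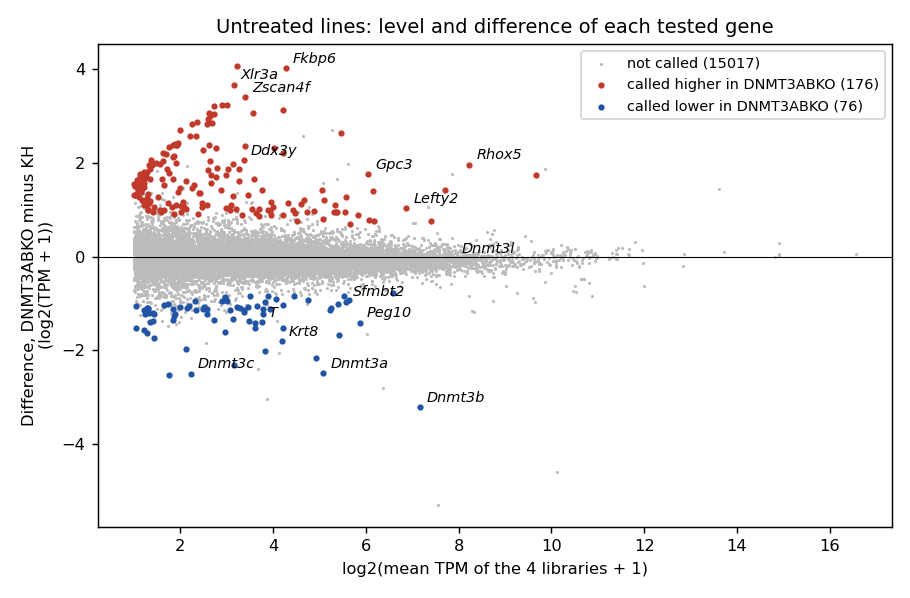
Difference between the lines on the log2(TPM + 1) scale (vertical axis) against mean level over the 4 untreated libraries (horizontal axis), with 1 point per tested gene. Red points are the 176 genes called higher in DNMT3ABKO, blue points the 76 called lower and grey points the genes not called; the called-higher genes lie mostly at low mean levels, and Dnmt3b and Dnmt3a lie far below 0.

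The test covered 15269 genes that averaged 1 TPM or more in these libraries, and limma called 252 of them between the lines at an adjusted p under 0.05, or 1.65%. Of these, 176 were higher in DNMT3ABKO (1.15% of tested) and 76 were lower (0.498%), against 1646 genes at an unadjusted p under 0.05. The calls rest on that filter: over all 32673 genes limma called 0, with 3259 at an unadjusted p under 0.05, and the smallest adjusted p was 0.0914. The 176 higher genes had a median difference of 1.49 and median levels of 1.09 TPM in KH and 6.71 TPM in DNMT3ABKO. In 86 of them the KH mean was under 1 TPM, so that they were tested only because the knockout was high. The 76 lower genes had a median difference of -1.14 and went from a median of 10.6 TPM to 4.14 TPM. The 2 sets of levels are not compared, since the filter let in genes low in KH only where the knockout was high. The background was not centred on 0: the median of all tested genes was -0.06 and 38.9% of them lay above 0. The smallest two-sided p of an exact permutation test on such small groups is 0.333, so single genes were judged only by the fit across all genes.

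The knockout library numbered 1 stood apart from the other 3. Genes overlapping ribosomal RNA took 16.7% of its TPM against 10.3% in the second knockout library and 11.7% and 12.6% in KH, and mitochondrial genes took 0.747% against 1.77 to 2.15%. Its distance from its partner showed in a residual SD of 0.274 for DNMT3ABKO against 0.178 for KH, and 207 against 101 tested genes differed by more than 1 between the replicates of a line. Histone genes were among the extremes. Hist2h2aa1 was listed at 0 and 71.5 TPM in the 2 knockout libraries and H1fx at 0 and 25 TPM, with KH between 18.7 and 405 TPM for the pair. Genes overlapping Hist2h2aa1 were extreme too. Gm20634 (0 and 155 TPM in the knockout) went with it, whereas Gm47313 (145 and 1.22 TPM) and Gm20633 (91.2 and 1.88 TPM) went the other way. How reads were split between these overlapping genes was not tested. When either knockout library was left out, the spread came from the KH pair alone and the lone library was assumed to vary like it. The number of calls then rose to 973 without replicate 1 and to 2654 without replicate 2. These included all 252 calls in the same direction, which is no sign of stability in so permissive a fit. It was 412 without KH replicate 1. The sequencing depth is unknown, since TPM does not keep it, and no interval or floor for counting error can be given.

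Among germline genes known or proposed to be held by promoter methylation, 12 rose. The list was chosen with earlier results of these data known. Of its 38 genes, 25 were tested, 23 of them with a KH mean of at least 1 TPM. Limma called 12 higher and 0 lower, beside 1.15% of all tested genes called higher. The median difference was 0.78 over the tested members and 0.31 over all 38, beside -0.06 for all tested genes. Fkbp6, a co-chaperone of the piRNA pathway in male germ cells, was at 1.18 and 1.34 TPM in KH and at 34.5 and 36.2 TPM in DNMT3ABKO, the largest difference of any gene in the fixed lists. It was 28.0-fold higher by the ratio of means (4.01 ± 0.15 on the log2 scale, limma adjusted p = 0.000117). The KH and knockout libraries did not overlap, as was so for 15.8% of all tested genes in this direction, and the replicates of each line lay close together.

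Meiotic chromosome proteins made up much of the rest of that list. Hormad1, which marks unsynapsed chromosome axes, was at 4.77 and 6.29 TPM in KH and 25.7 and 32.9 TPM in DNMT3ABKO (2.21 ± 0.19, limma adjusted p = 0.00168). Smc1b, the meiotic cohesin subunit, went from 1.34 and 1.54 TPM to 8.58 and 9.33 TPM (2.03 ± 0.16, limma adjusted p = 0.00138). By the ratio of means Hormad1 was 5.29-fold and Smc1b 6.22-fold higher. Neither overlapped between the lines, as was so for 15.8% of all tested genes in this direction. Hormad2 and the synaptonemal complex gene Syce1 were 4.25- and 2.74-fold higher. Dazl, an RNA-binding protein of germ cells, was at 1.99 and 2.30 TPM in KH and at 7.04 and 12 TPM in the knockout (1.70 ± 0.24, limma adjusted p = 0.0174), with the widest gap between knockout replicates in this group. Stra8, needed for entry into meiosis, rose from 1.59 and 1.55 TPM to 5.23 and 3.72 TPM, and its adjusted p of 0.044 in limma was near the threshold. Tuba3a, Sohlh2, Rpl10l, Slc25a31 and Tex19.1 completed the called members, with differences from 0.69 (Tex19.1) to 2.31 (Tuba3a). The 13 tested members that were not called included Ddx4, the germ cell helicase (9.54 and 10.8 TPM against 6.32 and 8.95 TPM, -0.39), Tex15 (-0.04) and D1Pas1 (-0.34), so that the list was split and did not move as a whole.

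Among 14 tested piRNA pathway genes, 2 were called higher, Fkbp6 and Gpat2, beside 1.15% of all tested genes. Gpat2, an outer mitochondrial membrane acyltransferase that acts in piRNA biogenesis, went from 1.00 and 0.849 TPM to 8.22 and 8.44 TPM (2.28 ± 0.16, limma adjusted p = 0.000887). The other 12 were not called, and the best expressed of them, Tdrd12, was at 61.0 and 62.2 TPM in KH and 71.2 and 76.9 TPM in the knockout (0.26). Outside the lists, Ctcfl, the testis paralogue of the insulator protein CTCF, was at 0.279 and 0.183 TPM in KH and 4.79 and 5.95 TPM in DNMT3ABKO (2.37 ± 0.18). Rec114, required for meiotic DNA breaks, was at 2.34 and 2.68 TPM in KH and at 10.9 and 12.6 TPM in the knockout (1.86 ± 0.16). Both lay at low levels in wild-type cells, and Rec114 was picked out after its values were seen.

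**Figure D2:**
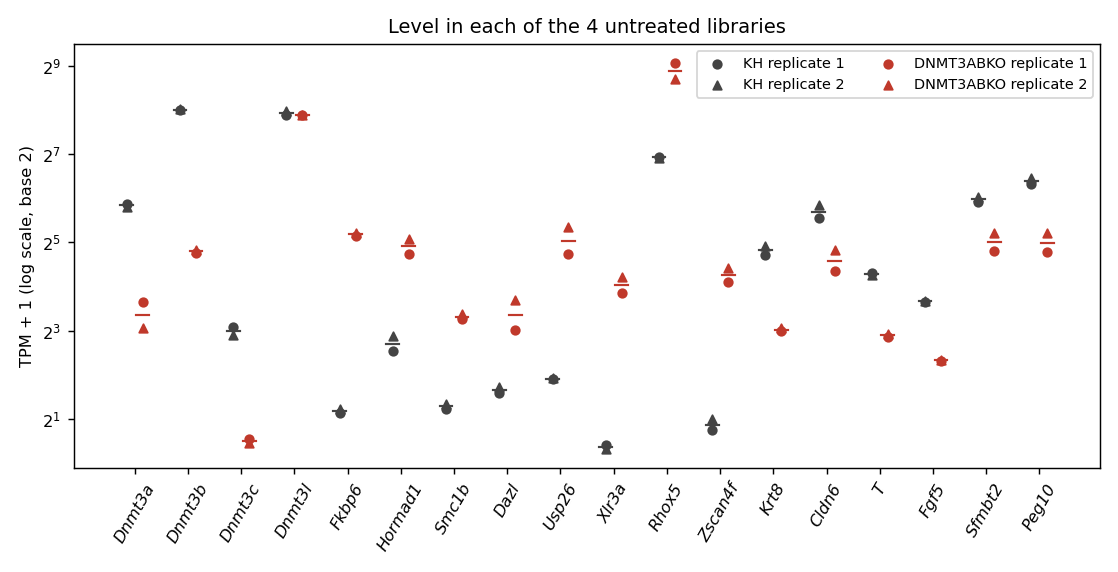
TPM + 1 on a log scale (base 2) in each of the 4 untreated libraries for 18 genes, with KH in grey, DNMT3ABKO in red, replicate 1 as circles and replicate 2 as triangles; short bars are means on the log scale. Replicates lie close together relative to the gap between lines for Dnmt3b, Fkbp6, Smc1b, Xlr3a, Zscan4f and Krt8, and all 4 points coincide for Dnmt3l.

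The X chromosome held a larger share of higher calls than any autosome. On it 26 of 547 tested genes were called higher (4.75%, beside 1.15% of all tested genes) and 4 lower (0.731%). The filter favours such shares of higher calls, since genes low in KH were tested only where the knockout was high. A KH mean of at least 1 TPM was found for 5 of 8 called genes in the Rhox run and 1 of 7 in the Xlr run, both described below. The Rhox cluster, reproductive homeobox genes at chrX:37209348-37901770, contributed 8 of its 9 tested genes, including pseudogenes. Rhox5, its best studied member, was at 122 and 120 TPM in KH and 533 and 416 TPM in DNMT3ABKO (1.95 ± 0.15, limma adjusted p = 0.00122). Rhox1 went from 1.28 and 1.25 TPM to 11.9 and 8.83 TPM (2.31), and Rhox2a from 0.351 and 0.334 TPM to 7.07 and 6.84 TPM (2.57). Rhox6 and Rhox9 were already above 25 TPM in KH and were 1.97- and 1.98-fold higher. Of the 32 Rhox genes in the list only these 5 were tested, 4 of them with a KH mean of at least 1 TPM, and all 5 were called. The other 27 averaged under 1 TPM and were not tested. Copies within Rhox2 are nearly identical, which makes their single values uncertain.

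Of 44 X-linked testis genes outside that cluster, 12 were tested and 8 were called higher, a count that the filter favours, since 8 of the 12 had a KH mean under 1 TPM and were tested only because the knockout was higher. Of the 4 with a KH mean of at least 1 TPM, Usp26 alone was called. Usp26, a testis deubiquitinase expressed in wild-type cells too, was at 2.73 and 2.80 TPM in KH and 25.4 and 39.7 TPM in DNMT3ABKO (3.12 ± 0.22, limma adjusted p = 0.0008). Xlr3a, of a family of X-linked lymphocyte-regulated genes, went from 0.331 and 0.241 TPM to 13.4 and 17.5 TPM (3.67 ± 0.19), and its near copies Xlr3b, Xlr3c and Xlr4a were higher by 3.0, 1.99 and 1.99. Together with Magea4, Pnma5 and Gm18336 the Xlr genes formed a run of 7 called among 12 tested genes at chrX:72222017-73398736. Pnma5, which was expressed in KH, went from 1.5 and 1.6 TPM to 19.7 and 20.8 TPM, a 13-fold difference. Efhc2, a ciliary protein, was at 0.602 and 0.467 TPM against 7.86 and 12.8 TPM (2.85 ± 0.23). Nxf3, an RNA export factor of testis, was at 0.198 and 0.158 TPM against 4.47 and 6.04 TPM (2.40 ± 0.19). Usp26 and Efhc2 had knockout replicates further apart than the other genes of this group. None of these genes overlapped between the lines, as was so for 15.8% of all tested genes in this direction. For those with a KH mean under 1 TPM the filter favoured this outcome. Mageb16 was not called (23.9 and 25.5 TPM against 20.3 and 22.5 TPM, -0.20), nor were Tsx (-0.03) and Fthl17f (0.50). Gpc3, an X-linked proteoglycan of the cell surface and picked out after its values were seen, also rose, from 27.5 and 31.0 TPM to 99.1 and 103 TPM (1.75 ± 0.13, limma adjusted p = 0.00109).

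Genes of the 2-cell-like state were higher, although at low levels in absolute terms. Of 32 genes in the list 17 were tested, and only 1 of these had a KH mean of at least 1 TPM, so that the 15 called higher had in effect to differ in order to be tested. Over all 31 members in the files the median difference was 1.13. Zscan4f, of the telomere-elongating Zscan4 zinc finger family, was at 0.672 and 0.986 TPM in KH and 16.1 and 20.5 TPM in DNMT3ABKO (3.40 ± 0.19, limma adjusted p = 0.000376). All 9 tested genes of the Zscan4 cluster at chr7:10794242-11614112 were called higher, with a median difference of 3.07. Usp17le, a deubiquitinase of another 2-cell-like family, went from 0.202 and 0.142 TPM to 4.04 and 4.6 TPM (2.18), and Tcstv1 from 0.00592 and 0.0114 TPM to 2.61 and 1.73 TPM. Tmem92 reached 2.03 and 1.97 TPM from 0.083 and 0.0246 TPM. Members of these families are nearly identical in sequence, which makes the split of reads between them uncertain. A bulk library cannot show whether a few cells of the 2-cell-like state or many cells with a little of each transcript were sampled, and fewer cells of a type and less RNA per cell cannot be told apart.

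Many of the called-higher genes were neighbours. With a neighbourhood taken as at least 3 genes called in the same direction within 1 Mb, there were 12 of them with 72 of the 176 higher genes, and 1 with 12 of the 76 lower genes. Besides the Zscan4, Rhox and Xlr runs, tandem families of 2-cell-like type gave 12 of 14 tested genes on chromosome 12 (chr12:87480108-88324026), 7 of 10 around Tcstv1 (chr13:119893388-120318178) and 4 of 5 around Pramef25 (chr4:143535954-143951016). In these 3 runs, and in the Zscan4 run, 0 of the called genes had a KH mean of at least 1 TPM, so that the called shares were largely set by the filter. In the Xlr run 1 of the 7 called genes had one, and in the Rhox run 5 of 8. A cluster of KRAB zinc finger genes at chr4:145574528-147180579 held genes that wild-type cells expressed too. There 34 of 35 tested genes were above 0, 10 were called and the median difference was 0.44. Zfp981 in that cluster was at 38.1 and 38.5 TPM in KH and 91.2 and 114 TPM in DNMT3ABKO (2.67-fold, limma adjusted p = 0.0046), and Rex2 went from 31.8 and 29.9 TPM to 54.4 and 67.6 TPM (1.98-fold). KRAB zinc finger proteins bind retrotransposons and recruit silencing complexes. Over all 351 tested genes with a symbol starting with Zfp, 10 were called higher, 5 of them in this cluster, 0 were called lower and the median difference was -0.09. Paralogy among these genes again leaves the assignment of reads uncertain. The remaining runs were smaller, with 3 called genes each around Slfn9, Gstp2, Dnajc6 and Nlrp4c, and Slfn9 was 2.24-fold and Gstp2 1.71-fold higher.

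**Figure D3:**
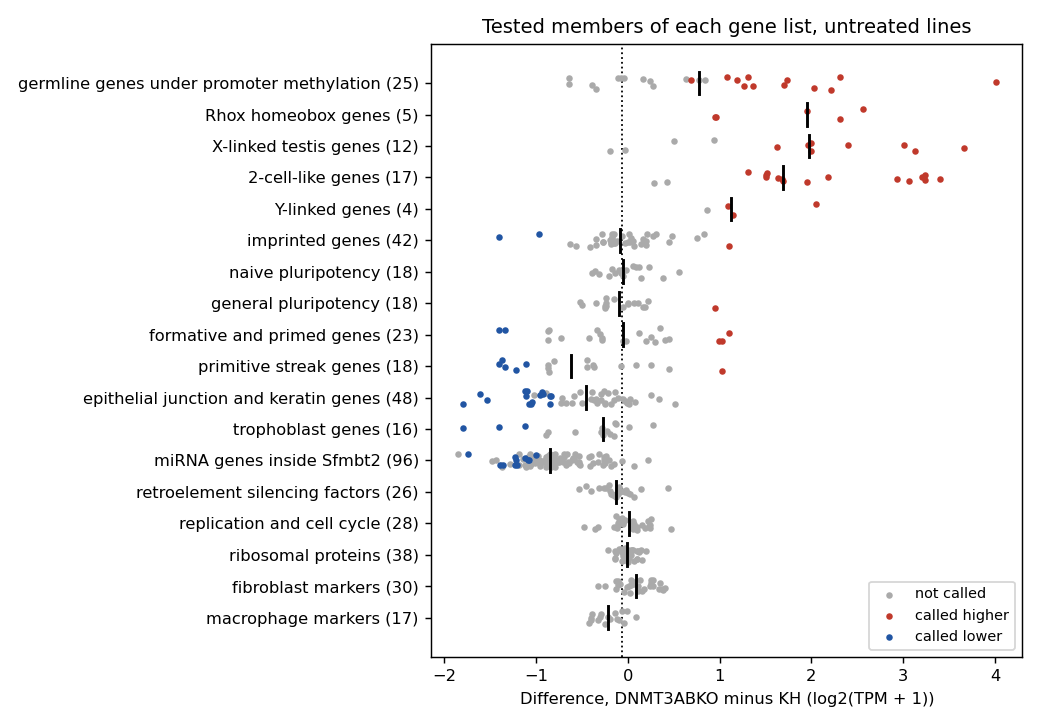
Difference between the lines on the log2(TPM + 1) scale for every tested member of 18 gene lists, 1 point per gene and 1 row per list with the number tested in brackets; black bars are list medians and the dotted line is the median of all tested genes (-0.06). Germline, Rhox, X-linked testis, 2-cell-like and Y-linked genes lie to the right, epithelial junction and keratin genes and miRNA genes inside Sfmbt2 to the left, and pluripotency, ribosomal and cell cycle genes around the dotted line.

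Y-linked genes of the fixed list were higher in DNMT3ABKO as well. Of all 9 tested genes of the Y, 66.7% lay above 0. Ddx3y, an RNA helicase, was at 3.09 and 2.94 TPM in KH and 14.7 and 16.5 TPM in DNMT3ABKO (2.05 ± 0.15, limma adjusted p = 0.00115). Eif2s3y and Uty were 2.37- and 2.41-fold higher, so that 3 of the 4 tested genes of the list were called. The fourth, Uba1y, was at 0.560 and 0.422 TPM in KH and 1.36 and 2.10 TPM in DNMT3ABKO and was not called (0.86). The number of Y chromosomes per cell and the transcription of each cannot be told apart here. Beside these values, the fibroblast markers had a median difference of 0.09 with 0 of 30 called by limma and 4 at an unadjusted p under 0.05.

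The genes that fell included keratins and epithelial junction genes. This list of 57 genes was written after the values were seen. Of 48 tested 15 were called lower, beside 0.498% of all tested genes, and 0 higher, with a median of -0.45. Krt8, a keratin of simple epithelia, was at 25.1 and 29.4 TPM in KH and at 6.90 and 7.29 TPM in DNMT3ABKO (-1.80 ± 0.15, limma adjusted p = 0.0016). Its partner Krt18 went from 18.9 and 20.6 TPM to 7.95 and 9.23 TPM (-1.11 ± 0.15). Neither keratin overlapped between the lines, as was so for 24.9% of all tested genes in this direction. Cldn6, Cldn7 and Cldn4, claudins of tight junctions, fell by 1.10, 1.08 and 0.93, and Lad1, a basement membrane anchor, fell by 1.61. Ap1m2, the epithelial clathrin adaptor, fell by 1.53. The adhesion genes Cdh1 and Epcam, which are expressed at high levels in ES cells, were not called. Cdh1 was at 189 and 205 TPM in KH and 126 and 148 TPM in DNMT3ABKO (-0.52, limma adjusted p = 0.157), and Epcam differed by -0.50. The list median was -0.13 at 72 h and -0.31 at 144 h. Krt8 and Krt18 were also the called members, with Peg10, of 16 tested trophoblast genes.

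Of 18 tested genes of the primitive streak and of early signalling, 5 were called lower, 1 higher and 12 were not called. Over all tested genes 0.498% were called lower. This list was likewise put together once the values were known. T, the Brachyury factor of the streak, went from 18.8 and 18.3 TPM to 6.22 and 6.59 TPM (-1.40 ± 0.14, limma adjusted p = 0.00406). Fgf8, a growth factor of the streak, went from 16.4 and 13.8 TPM to 5.14 and 5.29 TPM (-1.37 ± 0.16). Fgf5, a marker of the primed epiblast, went from 11.5 and 11.8 TPM to 3.97 and 4.06 TPM (-1.33 ± 0.15). In all 3 the lines did not overlap, as was so for 24.9% of all tested genes in this direction. Wnt3, the ligand that starts streak formation, went from 2.54 and 3.01 TPM to 0.656 and 0.591 TPM (-1.21 ± 0.17). The median of the list was -0.62. The one that was higher, Lefty2, an inhibitor of Nodal signalling, went from 73.8 and 77.8 TPM to 147 and 166 TPM (1.03 ± 0.13). Zic2 and Zic5, zinc finger factors of the epiblast and neural plate, were 2.21- and 2.09-fold higher. The formative and primed genes were thus mixed, with 3 called higher, 2 lower and 18 not called of 23 tested. Eomes, a streak and trophoblast factor, was at 8.11 and 9.52 TPM against 3.85 and 4.96 TPM (-0.87), and missed the threshold at a limma adjusted p of 0.073.

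Sfmbt2 and the miRNA genes inside it formed the one neighbourhood of genes called lower. Sfmbt2, an imprinted Polycomb-related gene with a large rodent miRNA cluster in an intron, was at 59.5 and 64.1 TPM in KH and 27.1 and 35.8 TPM in DNMT3ABKO (-0.96 ± 0.16, limma adjusted p = 0.0372). Of 96 tested miRNA genes inside it, 94 were below 0 and 11 were called lower, beside 0.498% of all tested genes, with a median of -0.85. Reads of the host intron over these short genes were not separated from those of miRNA precursors, and the mature miRNAs were not measured. Peg10, an imprinted gene derived from a retrotransposon and needed in placenta, fell from 79.4 and 87.2 TPM to 26.4 and 36 TPM (-1.41). Mest, a paternally expressed gene, rose from 0.371 and 0.601 TPM to 2.19 and 2.18 TPM (1.10). These were the only 3 of 42 tested imprinted genes that were called, and the median of that list was -0.09.

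Apart from these groups, single genes with large decreases included Mcf2, a guanine nucleotide exchange factor (13.4 and 14.4 TPM in KH, 2.04 and 1.93 TPM in DNMT3ABKO, -2.32 ± 0.15, limma adjusted p = 0.0007). Plac8, named for its expression in placenta, was at 50.2 and 47.5 TPM in KH and 10.9 and 9.36 TPM in the knockout (-2.17 ± 0.14). Kctd12 was at 4.48 and 5.02 TPM in KH and listed at 0 in both knockout libraries, which gives no fold. Its difference was -2.35 at 72 h and 0.30 at 144 h, where the means were 1.7 TPM in KH and 2.9 TPM in DNMT3ABKO. With all 12 libraries its 0 h difference missed the threshold (limma adjusted p = 0.0832). Sprr2a2, a cornified envelope gene, was 7.69-fold lower and AU015836 4.55-fold lower. Calml4 and Raver1 were 2.97- and 3.19-fold lower, and in Raver1 the replicates of each line were far apart (72.4 and 54.0 TPM in KH, 14.1 and 25.5 TPM in the knockout).

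Of the 176 higher genes, 79 were in no fixed list and no neighbourhood. Ptprtos, an antisense transcript of a receptor phosphatase gene, was at 3.0 and 1.85 TPM in KH and 14.3 and 18.9 TPM in DNMT3ABKO (2.37 ± 0.22). The other examples given here were picked out after their values were seen, as genes known from differentiated tissues. Nefm, a neurofilament subunit of neurons, went from 1.26 and 1.85 TPM to 6.29 and 6.29 TPM (1.52 ± 0.18), and Nefh, its larger partner, from 9.25 and 10.6 TPM to 19.7 and 18.6 TPM (0.89 ± 0.15). Mlana, a melanocyte antigen, was at 0.967 and 1.31 TPM in KH and at 4.77 and 4.35 TPM in the knockout (1.38 ± 0.17). Apobec2, a muscle member of the cytidine deaminase family, went from 1.79 and 2.09 TPM to 8.48 and 9.10 TPM (1.74 ± 0.16). These genes belong to unrelated tissues, and each stayed at or below 19.7 TPM in the knockout. Among genes that fell outside the lists, Car2, a carbonic anhydrase, went from 48.0 and 52.8 TPM to 19.6 and 25.3 TPM (-1.14 ± 0.16), and Gldc, the glycine cleavage enzyme that is high in ES cells, from 113 and 128 TPM to 66.3 and 74.3 TPM (-0.77 ± 0.13, limma adjusted p = 0.0399).

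The libraries carried ES cell markers at high levels in both lines, and few genes of the pluripotency lists were called. Pou5f1 was between 786 and 865 TPM in the 4 libraries, and Nanog, at 189 and 212 TPM in KH and 227 and 301 TPM in DNMT3ABKO, was not called (0.39, limma adjusted p = 0.456). Of 18 tested naive pluripotency genes limma called 0 (2 at an unadjusted p under 0.05), with a median of -0.06, and of 18 general pluripotency genes Rex2 alone, with a median of -0.10. The lists of primitive endoderm (14 tested), Hox genes (13), retroelement silencing factors (26), PRC1.6 and E2F6 complex (16), MHC class I (10), replication and cell cycle (28), p53 targets (20) and ribosomal proteins (38) held 0 called genes in limma, with medians between -0.21 and 0.11. At an unadjusted p under 0.05 these 8 lists held 0, 1, 3, 1, 1, 2, 1 and 0 genes, in that order. Of 22 interferon response genes only Gbp2 was called, and it was lower (-1.12). Of 9 tested ectoderm and neural genes Pax6 was the only call. Fibroblast markers were present in all 4 libraries, Col1a1 at 372 and 366 TPM in KH and 495 and 384 TPM in DNMT3ABKO, where the methods describe feeder cells in the cultures, and the summed level of the 30 markers was 3389 and 3770 TPM against 3601 and 3901 TPM. Macrophage markers summed to 365 and 399 TPM in KH and 314 and 345 TPM in DNMT3ABKO, with 0 of 17 called by limma and 2 at an unadjusted p under 0.05. Of the primitive endoderm and trophoblast markers, Gata4, Sox17, Sox7, Cdx2 and Elf5 were near or below 1 TPM throughout. Gata6 was at 1.201 and 1.398 TPM in KH and 0.8151 and 1.283 TPM in DNMT3ABKO. Eomes was higher, at 8.113 and 9.524 TPM in KH and 3.845 and 4.963 TPM in DNMT3ABKO.

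Counted by level and not by test, 43 genes were under 0.5 TPM in both KH libraries and at least 2 TPM in both knockout libraries, and 4 genes showed the reverse. The reverse group was Kctd12, Dnmt3c, Gm26426 and Gm28625. The 43 had a median of 4.05 TPM in DNMT3ABKO, 37 were protein coding, 35 were on autosomes and 8 were on the X. In the fixed lists were 14 of them, 8 in the 2-cell-like list, 5 in the X-linked testis list and 1 in the Rhox list. The other 29 included genes of the Zscan4 run and of the runs of 2-cell-like type on chromosomes 12, 13 and 4. The list count thus understates these families. The highest of them was Gm12690, listed at 0 and 0.126 TPM in KH and at 16 and 17.5 TPM in DNMT3ABKO, which was picked out after its values were seen.

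Over the autosomes and the X, the shares of higher calls ranged from 0% to 4.75%, and on the Y they were 33.3%, or 3 of only 9 tested genes. Chromosome 12 had 2.29% of its tested genes called higher, chromosome 4 2.1% and chromosome 7 1.82%, against 1.15% of all tested genes. Each of these holds 1 or more of the tandem families above. In the chromosome 12 run and the Zscan4 run, 0 of the called genes had a KH mean of at least 1 TPM, so that the filter favoured these shares. In the zinc finger cluster on chromosome 4 all 10 called genes had one. On chromosome 10 limma called 0 of 705 in either direction, with 64 at an unadjusted p under 0.05. Lower calls were most frequent on chromosome 3 (1.33%) and on chromosome 2 (1.19%), the latter with the Sfmbt2 run.

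**Figure D4:**
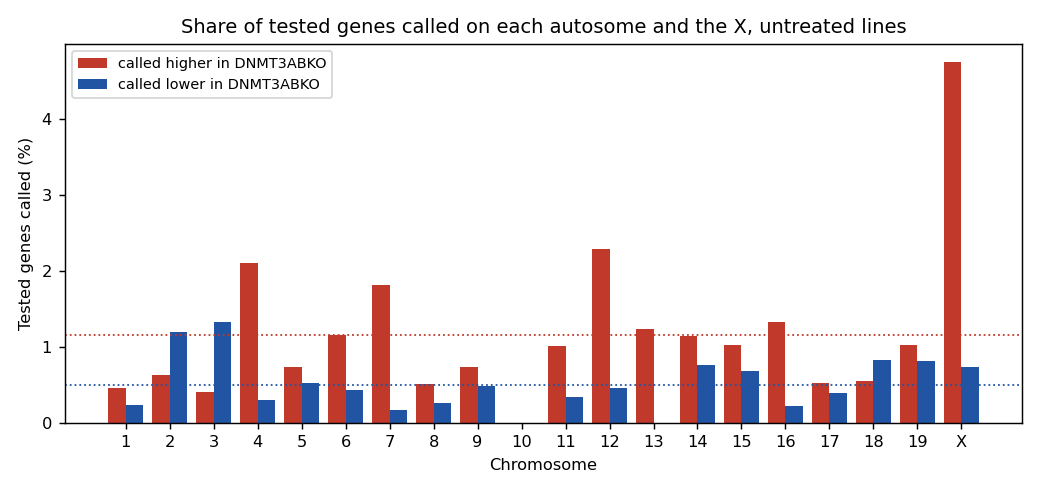
Share of the tested genes of each autosome and of the X called higher (red bars) or lower (blue bars) in DNMT3ABKO in the untreated lines, in percent; dotted lines are the shares over all tested genes (1.15% and 0.498%). The X bar for higher calls, 4.75%, is the tallest of those drawn, and chromosomes 12, 4 and 7 follow. The Y, with 9 tested genes, is not drawn. Genes low in KH were tested only where the knockout was high, which favours the red bars.

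The called genes were then read in separate libraries, at 72 and 144 h of INK128. Of the 176 genes called higher at 0 h, 165 were above 0 at each later time, and 155 and 144 of them were called higher there, beside 12.8% and 12.6% of all tested genes (31.3% and 32.6% in either direction). These made up 88.1% and 81.8% of the genes called higher at 0 h, and 7.93% and 7.5% of those called higher at the later times. Their median was 1.73 at 72 h and 1.84 at 144 h, against 1.49 at 0 h. Of the 76 genes called lower, 59 and 61 were below 0, and 41 and 39 were called lower, beside 18.5% and 20.0% of all tested genes. That was 53.9% and 51.3% of the genes called lower at 0 h, and 1.45% and 1.28% of those called lower later. Their medians were -0.51 and -0.47, against -1.14 at 0 h. The genes higher in the knockout thus mostly kept their direction and call. Most of the genes lower in the knockout kept their direction, and whether the 2 groups differ in this was not tested. Calls were made on the 0 h values, which favours smaller differences at the later times.

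The size of the difference changed in many of the called genes, by a limma interaction over all 12 libraries. Of the 176 higher genes it moved upwards in 51 and downwards in 19 at 72 h, and in 67 and 29 at 144 h. Of the 76 lower genes it moved upwards in 33 and downwards in 1 at 72 h, and in 28 and 0 at 144 h. Over all tested genes 3.51% passed that test at 72 h, 1.95% upwards and 1.57% downwards, and 6.52% at 144 h, 3.22% upwards and 3.31% downwards. The difference of Zscan4f was 3.40 at 0 h, 5.24 at 72 h and 6.02 at 144 h, and grew (adjusted p = 0.000848 and 1.85e-05). Dazl differed by 1.70, then 3.11 and 3.28, and Stra8 by 1.08, then 2.84 and 2.13, and both grew by the same test. Pax6, an eye and neural tube regulator, was at 1.80 and 2.51 TPM in KH and 6.84 and 10.1 TPM in DNMT3ABKO at 0 h, and its difference went from 1.57 to -0.44 and -0.61. The difference of Peg10 went from -1.41 to 0.90 and -0.24, and that of Gpc3 from 1.75 to 0.41 and -0.27. Fgf8 differed by 0.08 and 0.00 and Fgf5 by 0.04 and -0.33 at the later times, and neither was called there. These changes passed the interaction test at both times. That test shares its spread over the 6 groups, with a residual SD of 0.274 for DNMT3ABKO at 0 h and 0.130 to 0.178 in the others. Its p-values are therefore too small for this comparison. The genes were called on the same 0 h values that the interaction subtracts, so that a shrinking difference was favoured in advance. By contrast, no change in the difference was detected for Fkbp6 (4.01, then 4.76 and 4.03) or for Krt8 (-1.80, then -1.56 and -1.78) at an adjusted p under 0.05, nor for T (-1.40, then -1.17 and -1.31).

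**Figure D5:**
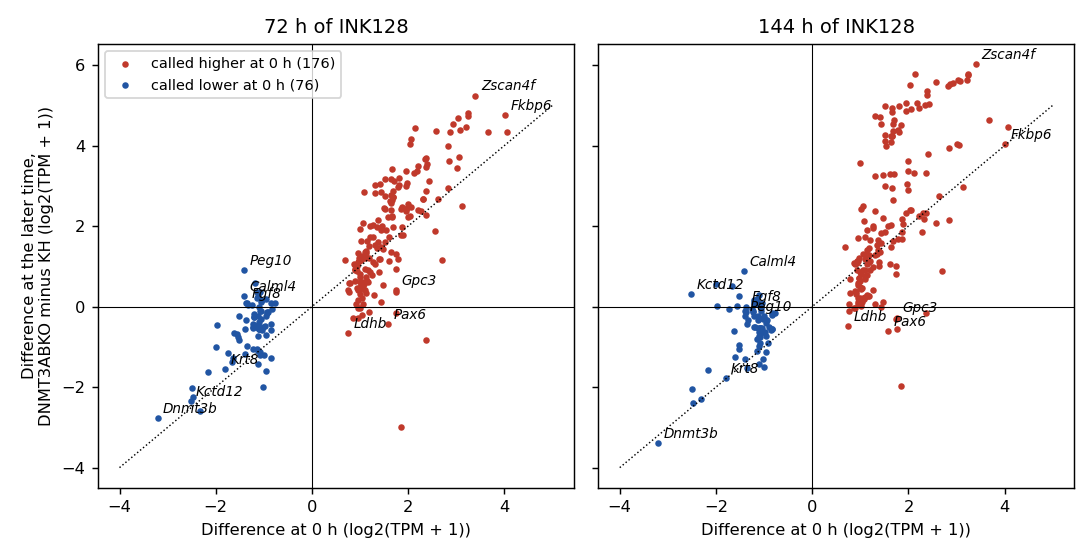
Difference between the lines at 72 h (left) and 144 h (right) of INK128 against the difference at 0 h, both on the log2(TPM + 1) scale, for the 252 genes called at 0 h; red is called higher and blue called lower at 0 h, and the dotted line marks equal differences. Most red points stay above 0 at both times, whereas the blue points spread around and above the dotted line, with Peg10 above 0 at 72 h.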

How the data were processed

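RNA had been extracted from sorted cells, mixed with ERCC spike-in RNA, depleted of ribosomal RNA (KAPA RNA HyperPrep with RiboErase) and sequenced in pairs. The submitters' processing notes name cutadapt 2.4, STAR 2.7.3a, StringTie 2.0 and mm10, and the methods describe trimming, alignment and quantification against GENCODE with replicates kept apart. The deposited values are TPM per gene, as computed by the authors with StringTie; each library summed to 1000000. Spike-in rows were not used here, so that changes in total RNA per cell are not seen.

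Rows repeating a gene ID (9 to 14 per 0 h library) were summed, 54446 genes remained, and log2(TPM + 1) was taken, on which scale fold changes of low genes are understated. limma 3.58.1 in R 4.3.3 was run on genes averaging 1 TPM or more in the 4 libraries (mean-variance trend, two-sided, Benjamini-Hochberg over all genes, called at an adjusted p under 0.05). TPM cannot enter the count test of the methods. The 72 and 144 h libraries were fitted separately, and changes of the difference as an interaction over 12 libraries. On simulated data for the 0 h comparison over 15269 genes, 92% of genes changed by 1 and 99% of those changed by 2 (log2) were recovered, and 16 of 207 calls were unchanged genes. Whether these rates carry over to the real libraries was not tested. There the residual SD was 0.274 for DNMT3ABKO and 0.178 for KH. DNMT3ABKO replicate 1 lay above replicate 2 in 26.19% of tested genes. Depth is unknown.

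Groups came from the labels. Alternatives were another pseudocount, filter or scaling, all 12 libraries, group weights, a replicate block, and leaving out each library; removing 2 genes over ribosomal RNA was added after seeing the data. Named genes were the Dnmt3 genes, the 15 highest and 15 lowest named genes called without overlap, at most 8 called and 4 uncalled members per list, the 6 genes differing most between the knockout replicates in each direction, and genes of neighbourhoods; others are marked where named. The genes, 24 lists and tests were chosen with earlier results of these data known, and 3 lists were added after seeing the values. Promoter sequences are from RefSeq (GRCm38.p6).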

Additional observations from a re-analysis of the deposited data

Results flagged for a closer look

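For genes named above, the difference between the lines was compared between 0 h and each later time by a limma interaction over all 12 libraries, and the genes below passed at an adjusted p under 0.05. The spread shared over the 6 groups is smaller than that of DNMT3ABKO at 0 h (residual SD 0.274 there and 0.130 to 0.178 in the other groups), so that these p-values are too small for this comparison. Over all tested genes 3.51% passed at 72 h and 6.52% at 144 h. Each value below is the difference at the later time minus that at 0 h, on the log2(TPM + 1) scale. Genes called at 0 h were picked by the same 0 h values, so that movement of their difference towards 0 was favoured in advance.

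Genes of the 2-cell-like list moved upwards, namely Zscan4f (1.84 at 72 h, 2.62 at 144 h), Usp17le (1.2 and 2.87), Tmem92 (1.66 and 2.60), Pramef25 (1.05 and 2.67) and, at 144 h, Tcstv1 (2.45). Germline genes also moved upwards in part, with Dazl (1.41 and 1.58), Stra8 (1.77 and 1.05), Rpl10l (0.46 and 0.73), Tex19.1 (0.46 and 0.79) and D1Pas1 (0.72 and 1.05), whereas Hormad2 (-0.92) and Tdrd12 (-0.62) moved downwards at 144 h.

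On the X chromosome the difference grew for Pnma5 (0.65 and 0.95), Gm18336 (0.75 and 0.70) and Nxf3 (1.15 and 1.40), at 72 h for Magea4 (0.99), and at 144 h for Xlr3a (0.97), Xlr3b (1.04), Xlr3c (1.62), Xlr4a (0.91) and Efhc2 (1.09). It shrank for Rhox9 (-1.25 and -0.74), for Rhox2a at 72 h (-0.68) and for Gpc3 (-1.35 and -2.03), the last of which crossed 0 at 144 h. The Y-linked Uba1y moved by 0.99 and 0.91.

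Of the genes lower in DNMT3ABKO at 0 h, several moved towards 0 or past it. Primitive streak genes did so in Fgf8 (1.45 and 1.37), Fgf5 (1.38 and 1.01) and Wnt3 (1.02 and 0.97), and Eomes, not called at 0 h, moved at 144 h (0.73). Epithelial genes did so at 72 h in Cldn7 (0.96), Cldn4 (0.77), Lad1 (0.95) and Ap1m2 (0.78), and the uncalled Epcam moved at both times (0.79 and 0.56). Other such genes were Peg10 (2.30 and 1.16), Sprr2a2 (1.51 and 1.98), AU015836 (1.00 and 2.56), Calml4 (1.67 and 2.28), Car2 (1.51 and 1.34) and Gldc (0.87 and 0.62), and at 144 h Gm26426 (1.28) and Gm28625 (1.58). Dnmt3b moved at 72 h (0.43) and remained called lower there.

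Of the genes higher at 0 h, Pax6 (-2.02 and -2.18), Lefty2 (-0.83 and -0.57), Zic2 (-0.68 and -0.87), Dnajc6 (-1.13 and -0.90) and Apobec2 (-0.79 and -0.73) moved downwards at both times, and Zic5 (-0.84) and Gstp2 (-0.69) at 144 h. Nefm moved upwards at 72 h (0.91) and Nlrp4c at 144 h (1.07). Among genes not called at 0 h, Dnmt3l moved by 0.64 and 0.40 and Nanog by -0.95 at 72 h.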

How the results depend on the processing

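The 252 calls (176 higher, 76 lower) fell to 111 (73 and 38) with a filter of 5 TPM and to 0 by limma with no filter, where 3259 of 32673 genes had an unadjusted p under 0.05. Without a filter Dnmt3a (-2.48) and Dnmt3b (-3.21) missed the threshold, at adjusted p of 0.122 and 0.0914. With all 12 libraries sharing a spread there were 1283 calls (628 and 655). A replicate block gave 603 calls (352 and 251). The deviations of same-numbered replicates correlated at 0.34 over genes in the 1 pair of groups compared, the labels give no shared origin, and the numbers were not taken as pairing. The study's reporting statement has the time points of a biological replicate handled together, and does not say so of the lines. Members given as not called are so in the fit without the block: with it, calls rose from 15 to 22 lower for epithelial, from 5 to 9 lower for streak and from 11 to 40 lower for Sfmbt2 miRNA genes, and from 12 to 14 higher for germline genes. Leaving out 1 library gave 344 to 2654 calls in all, 209 to 819 higher and 135 to 1835 lower. All 252 genes were called the same way under the block and without the 2 genes over ribosomal RNA, and 248 with all 12 libraries. Without a knockout library the spread comes from the KH pair alone, and the retained calls say nothing of stability. Of 121 named and called genes, the number that missed the threshold was 7 with a pseudocount of 0.1, 12 with median-ratio scaling, 25 with group weights over all 12 libraries, 6 and 10 without KH replicates 1 and 2, and 121 with no filter.

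List medians moved with the pseudocount of 0.1 for germline (1.00), X-linked testis (3.61), 2-cell-like (4.18), streak (-0.82) and Sfmbt2 miRNA genes (-1.18). With no filter they were 0.31 for germline, 0.69 for Rhox, 0.53 for X-linked testis, 1.12 for 2-cell-like and -0.44 for streak genes. With the filter of 5 TPM they were 1.26, 1.46, 3.06, 3.22 and -0.45 in that order, and -1.05 for Sfmbt2 miRNA genes. Without the genes over ribosomal RNA, X-linked testis genes were at 2.10 and 2-cell-like genes at 1.83, and median-ratio scaling gave 1.71 for the latter. Leaving out 1 library moved the medians within 1.77 to 2.13 for Rhox, 1.89 to 1.98 for X-linked testis, 1.65 to 1.84 for 2-cell-like, -0.31 to -0.025 for formative and primed, and -0.93 to -0.79 for Sfmbt2 miRNA genes.

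Of 215 named genes, 39 turned direction when 1 library was left out, and 0 of these were called by limma with all 4 libraries. In the turned direction 34 of the 39 did not pass the threshold, and 5, picked for unequal knockout replicates, did. The ranges of those 5 were -6.45 to 0.83 for Gm20634, -2.04 to 3.69 for Gm15564, -1.56 to 0.92 for Hgs, -0.89 to 1.74 for Zc3h11a and -2.83 to 0.58 for Gm15444. The cause was not tested.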

Other observations

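Tested genes of chromosome 8 lay lower in DNMT3ABKO than those of the other autosomes. Over 773 genes the median difference was -0.14 at 0 h, with 27.4% above 0, beside -0.06 and 38.9% for all tested genes, while 4 genes were called higher and 2 lower. At 0 h the median against the KH mean was -0.20 on chromosome 8 and -0.13 on the other autosomes in knockout replicate 1, and -0.06 and 0.03 in replicate 2. At 72 h these were -0.12 and -0.03, and -0.14 and -0.05. At 144 h they were -0.19 and -0.06, and -0.17 and -0.03. The chromosome 8 value was lower in 6 of 6 knockout libraries, and it is a description with no test. The number of copies of the chromosome was not measured.

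Mitochondrial genes differed between the knockout replicates at 0 h. Of 32 tested, 29 were lower in replicate 1 than in replicate 2, with a median of -1.27 against -0.15 between the KH replicates. The median difference between the lines was -0.67, limma called 0 of them, and the median was 0.05 without knockout replicate 1.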
